A study of Homo sapiens with 12 samples.

Results

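The 31 genes described here are target genes of the transcription factor p53, chosen by name from general knowledge of the pathway, with no measured value in the rule. Earlier results of these data were known when they were chosen. All 31 were found by symbol among the 58051 genes of the count table, and 30 of them were among the 14214 genes with enough reads to be tested. SPATA18, which encodes a protein of mitochondrial quality control, was not tested, with 4 to 11 counts per library. p53 is held at a low level by the ubiquitin ligase MDM2 and its partner MDM4, and it accumulates after DNA damage and other stress. It then binds paired decamer elements near its targets and activates genes of cell cycle arrest, apoptosis, DNA repair and metabolism. Among them is MDM2 itself, which closes a negative feedback loop.

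RNA was measured in MV4-11, a human line of acute myeloid leukaemia with a rearranged KMT2A gene and a FLT3 kinase activated by a tandem duplication. Cells received BSJ-03-123, YKL-06-102 or palbociclib, each at 200 nM for 6 h, or the vehicle, 0.1% DMSO, for the same time, with 3 libraries in each of the 4 groups. Palbociclib inhibits the catalytic activity of the cell cycle kinases CDK4 and CDK6, and the labels call BSJ-03-123 and YKL-06-102 conjugates specific for CDK6, without naming how the structures of those 2 differ. All groups share 1 cell line, 1 dose and 1 time, and the labels leave unsaid whether replicates are separate cultures. The p-values therefore reflect only how far these libraries spread, which may be technical variation.

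Library totals ran from 18764307 to 25539858 counts. DMSO replicate 2 stood apart from the other DMSO libraries, with a chi-square per degree of freedom of 5.89 and 8.93 against them, where 1 is sampling noise, while the remaining replicate pairs of all groups lay between 1.72 and 2.95. Calls of members that are lost without that library are named below. For genes outside the members such losses are not given. All 8 markers of myeloid leukaemia cells that were checked were detected above the filter. Their summed level was 1821 to 1849 CPM (counts scaled to a common library size) after BSJ-03-123, 2100 to 2139 after YKL-06-102 and 1841 to 1903 after palbociclib, against 1686 to 1723 with DMSO. A sum is weighted to the highest genes. Singly, 4, 5 and 5 of the 8 were higher than with DMSO in that order (edgeR adjusted p under 0.05). Over all tested genes it was 12.4%, 15.6% and 15.6%. With YKL-06-102, 1 of the 8 was lower, beside 21.3% of all tested genes. Of 12 markers of lymphoid, erythroid, endothelial, fibroblast and epithelial cells, 5 were at 0 counts in every library, among them MS4A1, HBB, EPCAM and KRT19. Of the other 7, 2 passed the filter, among them PECAM1 at 118 to 153 CPM. The part of the higher summed level of the myeloid markers in the results below was not tested.

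These counts do not measure p53 protein, which is regulated mainly by its stability, and in bulk RNA fewer cells that express a gene and less RNA per cell cannot be told apart.

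To show what lies next to the start sites of genes that were called in 1 direction with every compound, the RefSeq windows (GRCh38.p14, 250 bases before to 50 bases after a transcript start) of 4 such members, chosen after their values were seen, are printed in the direction of transcription. They are those of DDB2 (chr11:47214724-47215023, plus strand) and AEN (chr15:88621090-88621389, plus strand), whose transcripts fell, of PIDD1 (chr11:805182-805481, minus strand), which fell farthest, and of BTG2 (chr1:203305269-203305568, plus strand), which rose. DDB2 has a second RefSeq window upstream, which held no match. Capitals mark matches to the p53 half-site consensus, to an E2F motif or to the cell cycle homology region (CHR) motif.
DDB2: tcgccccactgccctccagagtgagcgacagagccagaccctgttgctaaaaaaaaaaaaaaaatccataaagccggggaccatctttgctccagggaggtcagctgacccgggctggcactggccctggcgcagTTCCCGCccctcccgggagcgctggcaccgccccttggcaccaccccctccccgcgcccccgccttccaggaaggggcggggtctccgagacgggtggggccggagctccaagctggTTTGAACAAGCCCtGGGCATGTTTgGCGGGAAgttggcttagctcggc
AEN: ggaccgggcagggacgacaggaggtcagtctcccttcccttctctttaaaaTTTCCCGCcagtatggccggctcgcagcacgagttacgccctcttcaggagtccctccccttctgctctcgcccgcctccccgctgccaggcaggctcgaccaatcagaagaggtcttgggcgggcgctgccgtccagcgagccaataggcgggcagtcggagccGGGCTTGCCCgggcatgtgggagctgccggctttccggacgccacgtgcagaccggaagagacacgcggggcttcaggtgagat
PIDD1: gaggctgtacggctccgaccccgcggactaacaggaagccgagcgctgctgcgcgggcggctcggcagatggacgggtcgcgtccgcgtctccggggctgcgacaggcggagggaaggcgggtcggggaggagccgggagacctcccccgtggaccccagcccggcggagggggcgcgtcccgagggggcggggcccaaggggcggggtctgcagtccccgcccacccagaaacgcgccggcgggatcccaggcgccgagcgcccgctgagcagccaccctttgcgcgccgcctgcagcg
BTG2: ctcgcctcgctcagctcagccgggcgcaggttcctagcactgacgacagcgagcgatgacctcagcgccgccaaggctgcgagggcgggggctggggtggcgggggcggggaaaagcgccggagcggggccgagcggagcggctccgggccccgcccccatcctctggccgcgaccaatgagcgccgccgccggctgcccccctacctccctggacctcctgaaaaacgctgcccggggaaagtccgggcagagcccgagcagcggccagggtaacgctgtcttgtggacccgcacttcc
In the DDB2 window, counted from +1 at the transcript start, p53 half-sites lie at +6 to +15 and at +17 to +26, 1 base apart, which is the paired arrangement that p53 binds. The CHR motif TTTGAA at +3 to +8 overlaps the first of them, and the 7-letter E2F core lies at -115 to -109 and, on the other strand, at +28 to +34. The AEN window holds an 8-letter E2F motif at -199 to -192 and a p53 half-site at -34 to -25. The PIDD1 and BTG2 windows hold no exact match to any of the motifs. Sites that depart from the searched letters were not looked for in any window, so these windows may hold imperfect ones.

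Both strands were searched in the windows of the 23 members that RefSeq covers and in all 35116 windows of the table. The p53 half-site was found in windows of 6 of the 23 members (AEN, DDB2, FAS, FDXR, PLK2 and SESN1) and in 6.63% of all windows. The 8-letter E2F motif, searched as TTTCCCGC, TTTCGCGC, TTTGCCGC and TTTGGCGC, was found for 5 members (AEN, CYFIP2, MDM2, SUSD6 and XPC) and in 3.31% of all windows. Its 7-letter core, the same letters without the leading T, was added after the DDB2 window had been seen. It was found for 8 members (AEN, CYFIP2, DDB2, MDM2, PLK2, SUSD6, TIGAR and XPC) and in 13.0% of all windows. Every 8-letter match contains it. The CHR motif was found for 4 members (DDB2, FAS, MDM4 and ZMAT3) and in 15.2% of all windows. A member can have several windows, so these shares of genes and of windows are not on the same footing, and a match does not show that a factor binds there.

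The members spanned a wide range of levels in vehicle cells. Per kilobase of exon, TRIAP1 was highest, at 43.2 CPM per kilobase, followed by CCNG1 at 35.9 and TNFRSF10B at 18.4. The lowest tested members were TP53I3 at 1.35, TP53INP1 at 0.674, CYFIP2 at 0.423 and the death receptor gene FAS at 0.387 CPM per kilobase, and SPATA18 stood at 0.0849. FAS had 20 to 35 counts per library, so its 95% interval of the log2 fold change against DMSO was wide, from -0.74 to 0.18 after BSJ-03-123, from -0.85 to 0.06 after YKL-06-102 and from -0.55 to 0.33 after palbociclib.

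**Figure D1:**
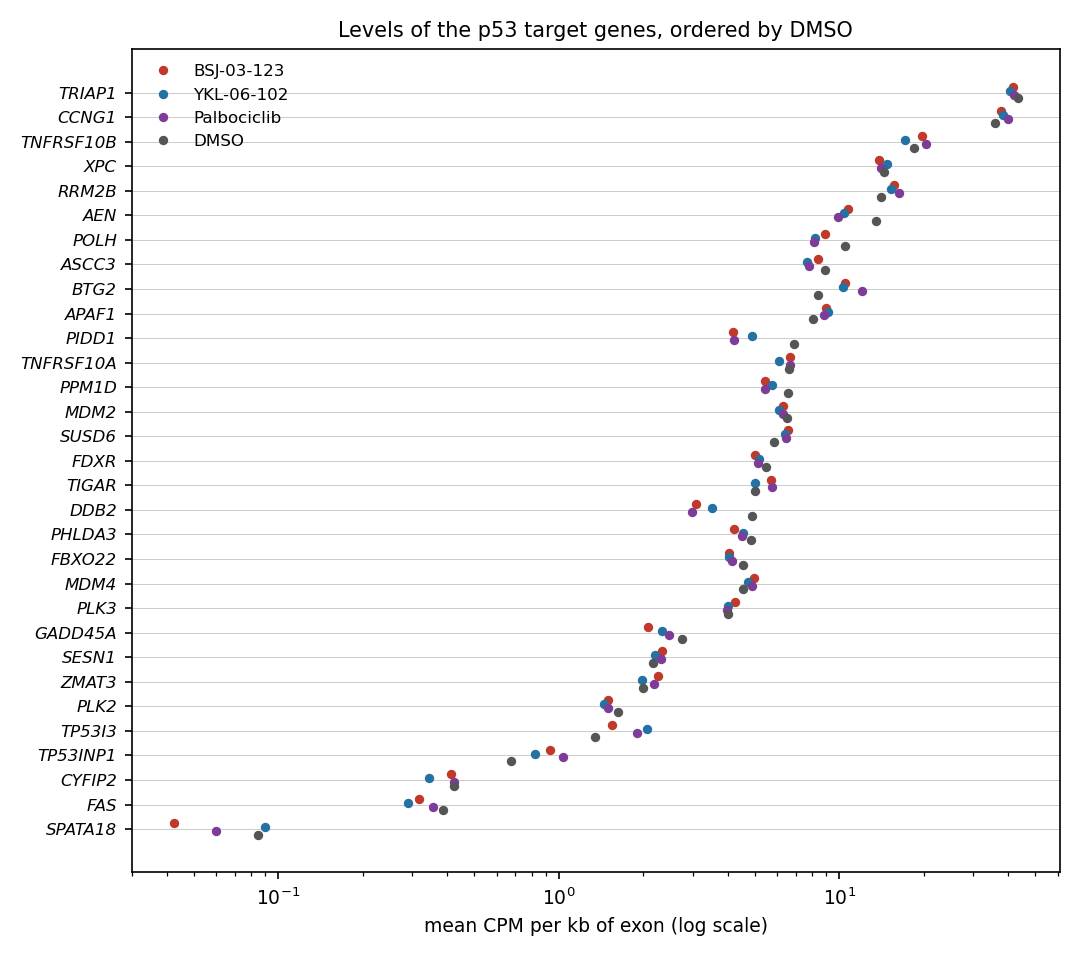
Mean level of each member per kilobase of exon (CPM per kilobase, log axis) in the 4 groups, ordered by the level with DMSO. Levels between genes differ far more than levels of 1 gene between groups, from 43.2 CPM per kilobase for TRIAP1 to 0.0849 for SPATA18 with DMSO.

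A gene was called changed at an adjusted p under 0.05 (edgeR quasi-likelihood test, Benjamini-Hochberg over all tested genes of the comparison). With BSJ-03-123 against DMSO, 6 of the 30 tested members rose and 7 fell, where 12.4% of all tested genes were called higher and 15.7% lower. With YKL-06-102 against DMSO, 4 rose and 7 fell, beside 15.6% higher and 21.3% lower over all genes. With palbociclib against DMSO, 9 rose and 7 fell, beside 15.6% and 17.6%. In each comparison the members moved both ways, so the list had no common direction. Their median log2 fold change was -0.03 after BSJ-03-123, -0.09 after YKL-06-102 and -0.02 after palbociclib, and over all tested genes it was 0.01, -0.02 and 0.01 in the same order. The members' median size of change, regardless of sign, was 0.16, 0.14 and 0.14 on the log2 scale, against 0.13, 0.15 and 0.14 over all genes. The 3 comparisons share the DMSO libraries, so their calls are not independent of each other.

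No member changed as far as 2-fold. The log2 fold changes ran from -0.72 to 0.50 after BSJ-03-123, from -0.50 to 0.62 after YKL-06-102 and from -0.72 to 0.65 after palbociclib. Without DMSO replicate 2, 3 members rose and 8 fell after BSJ-03-123, 4 rose and 10 fell after YKL-06-102, and 7 rose and 7 fell after palbociclib. Of the 14374 genes tested in that fit, 1774 were called higher and 2314 lower, 2754 and 2829, and 2108 and 2491, in the same order. The count of members that rose with BSJ-03-123 was also 3 without BSJ-03-123 replicate 2 and without replicate 3. In those fits 1320 of 14548 and 1343 of 14535 tested genes were called higher. Scaled by library totals alone, 10 members were called higher with BSJ-03-123 and 7 lower, beside 2852 and 1765 of 14214 tested genes. PIDD1, DDB2, AEN and POLH were called lower with each compound under every one of the 19 alternative settings, and BTG2 was called higher with each under all 19. The share of all tested genes with such calls is not given here.

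**Figure D2:**
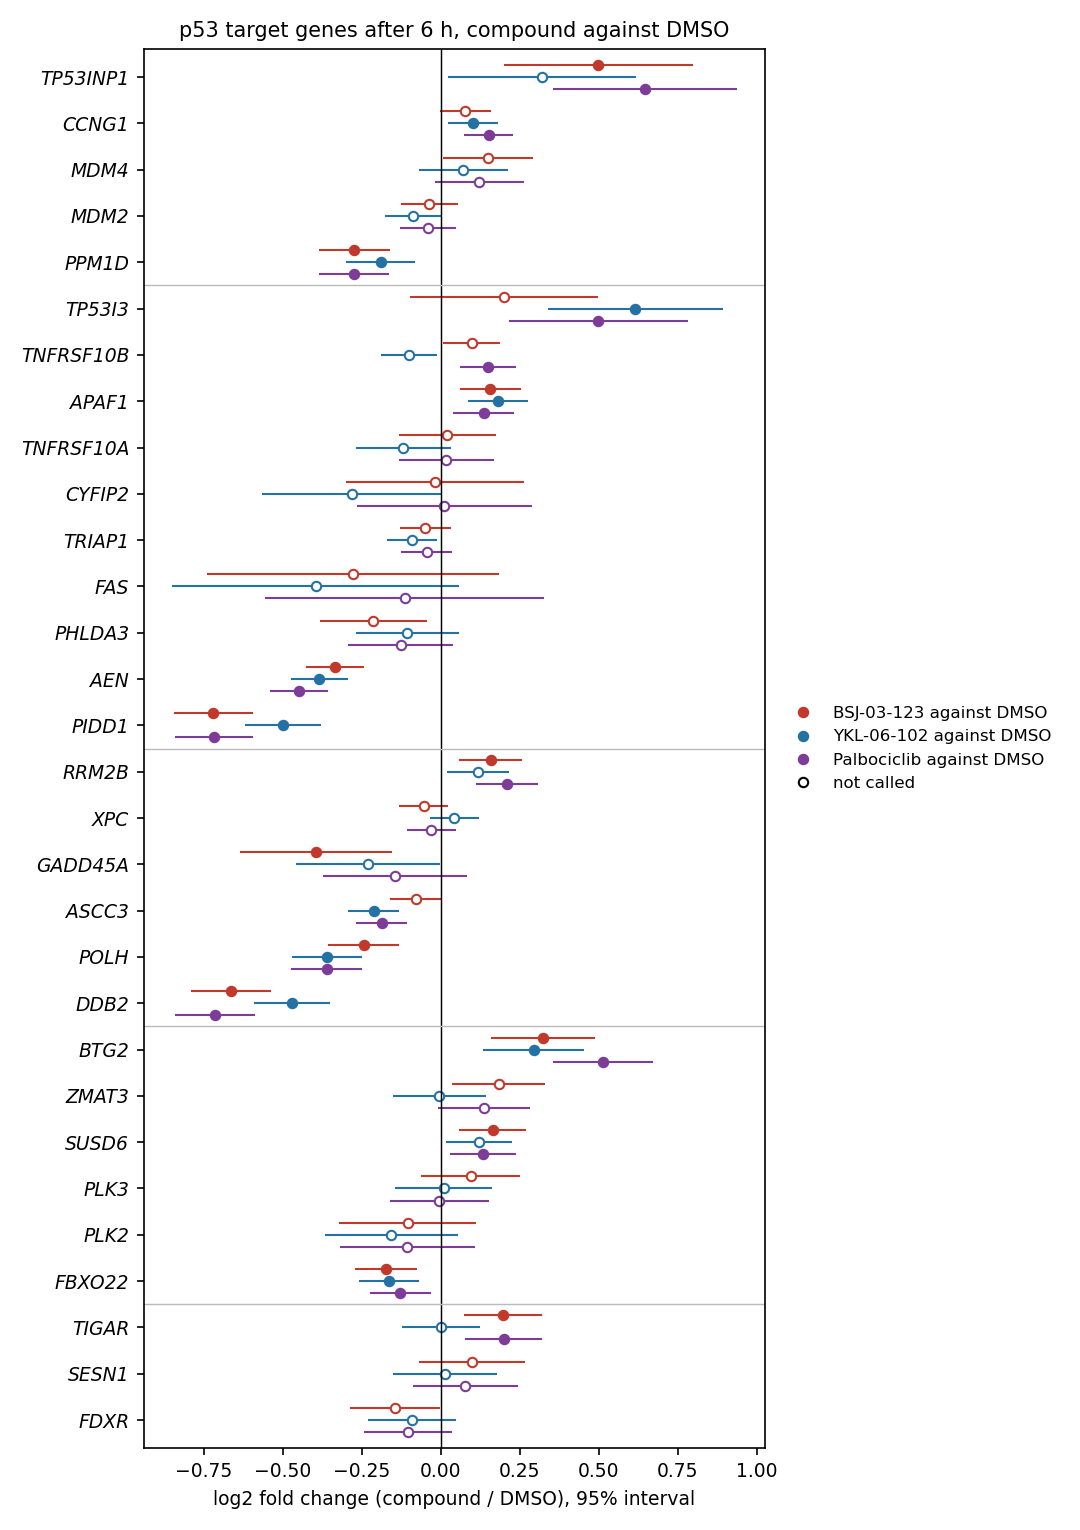
Log2 fold change of each tested member with BSJ-03-123, YKL-06-102 and palbociclib against DMSO, ordered by role, with 95% intervals, and filled points for calls at an adjusted p under 0.05. PIDD1 and DDB2 lie farthest to the low side, at -0.72 and -0.66 with BSJ-03-123, and TP53INP1, TP53I3 and BTG2 farthest to the high side.

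Among the 5 genes of feedback on p53, PPM1D fell and MDM2 and MDM4 were not called with any compound. MDM2 (ENSG00000135679, chr12:68808176-68850686 of GRCh38, plus strand) had 84.9, 85.4 and 81.8 CPM after BSJ-03-123, 83.5, 81.0 and 78.4 after YKL-06-102, and 84.9, 80.7 and 85.4 after palbociclib, against 86.2, 80.7 and 92.0 with DMSO. The ranges of all treated groups overlap that of DMSO. The log2 fold change of MDM2 was -0.04 ± 0.04 (SE) after BSJ-03-123, with a 95% interval from -0.12 to 0.05, -0.09 ± 0.04 after YKL-06-102, from -0.18 to -0.00, and -0.04 ± 0.04 after palbociclib, from -0.13 to 0.05. The adjusted p were 0.601, 0.112 and 0.507 in that order. Without DMSO replicate 2, MDM2 was called lower with YKL-06-102 at -0.12 (adjusted p = 0.0214), and scaled by library totals its value had a positive sign with BSJ-03-123 and palbociclib, at 0.01 each, and was not called. MDM2 shares 133 exon bases with the gene for carboxypeptidase M, also abbreviated CPM, which was called higher with each compound, at 0.15, 0.25 and 0.16. Whether the counting used strand is not given in the sources used here, so reads in shared bases cannot be told apart for opposite genes.

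PPM1D, a phosphatase that removes activating phosphates from p53 and from DNA damage kinases, had 26.1, 29.3 and 27.0 CPM after BSJ-03-123, 29, 30.2 and 28.3 after YKL-06-102, and 26.8, 28.5 and 27.1 after palbociclib, against 32.0, 33.4 and 34.1 with DMSO. All 9 treated libraries lie below the 3 DMSO libraries. PPM1D fell by 0.27, 0.19 and 0.27 on the log2 scale with BSJ-03-123, YKL-06-102 and palbociclib (SE 0.05 each; adjusted p = 0.000297, 0.00541 and 0.000213). Without YKL-06-102 replicate 3 the change with that compound was -0.15 and no longer called (adjusted p = 0.0619).

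TP53INP1, a stress protein that promotes p53 phosphorylation and autophagy, had 5.22, 5.31 and 5.33 CPM after BSJ-03-123, 4.79, 4.99 and 4.24 after YKL-06-102, and 5.77, 5.52 and 6.31 after palbociclib, against 4.76, 2.74 and 3.96 with DMSO. The BSJ-03-123 and palbociclib libraries lie above all DMSO libraries, of which replicate 2 is the lowest, and the YKL-06-102 libraries overlap them. TP53INP1 rose by 0.50 ± 0.15 after BSJ-03-123 (adjusted p = 0.00986) and by 0.65 ± 0.14 after palbociclib (adjusted p = 0.000586), and was not called after YKL-06-102 (0.32 ± 0.15; adjusted p = 0.0845), except without DMSO replicate 1, at 0.51, and without a filter on low counts, at 0.35. Without DMSO replicate 2 the values were 0.27 with BSJ-03-123, which was not called (adjusted p = 0.149), and 0.42 with palbociclib, which was (adjusted p = 0.0139). CCNG1, which encodes cyclin G1, a partner of the phosphatase that activates MDM2, had 119, 117 and 116 CPM after BSJ-03-123, 118, 118 and 121 after YKL-06-102, and 121, 121 and 129 after palbociclib, against 117, 104 and 113 with DMSO. The YKL-06-102 and palbociclib libraries lie above the DMSO libraries by a narrow margin. CCNG1 rose by 0.10 ± 0.04 with YKL-06-102 (adjusted p = 0.0397) and by 0.15 ± 0.04 with palbociclib (adjusted p = 0.00289), and the call with YKL-06-102 was lost without DMSO replicate 2, BSJ-03-123 replicate 2 or YKL-06-102 replicate 3, at 0.07, 0.10 and 0.11. MDM4 was at 0.15, 0.07 and 0.12 with BSJ-03-123, YKL-06-102 and palbociclib, not called, but called higher with BSJ-03-123 and palbociclib without DMSO replicate 3, at 0.21 and 0.19, and without a filter on low counts, at 0.16 and 0.14. Scaled by library totals, MDM4 was also called with BSJ-03-123, at 0.19, as was CCNG1, at 0.12.

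**Figure D3:**
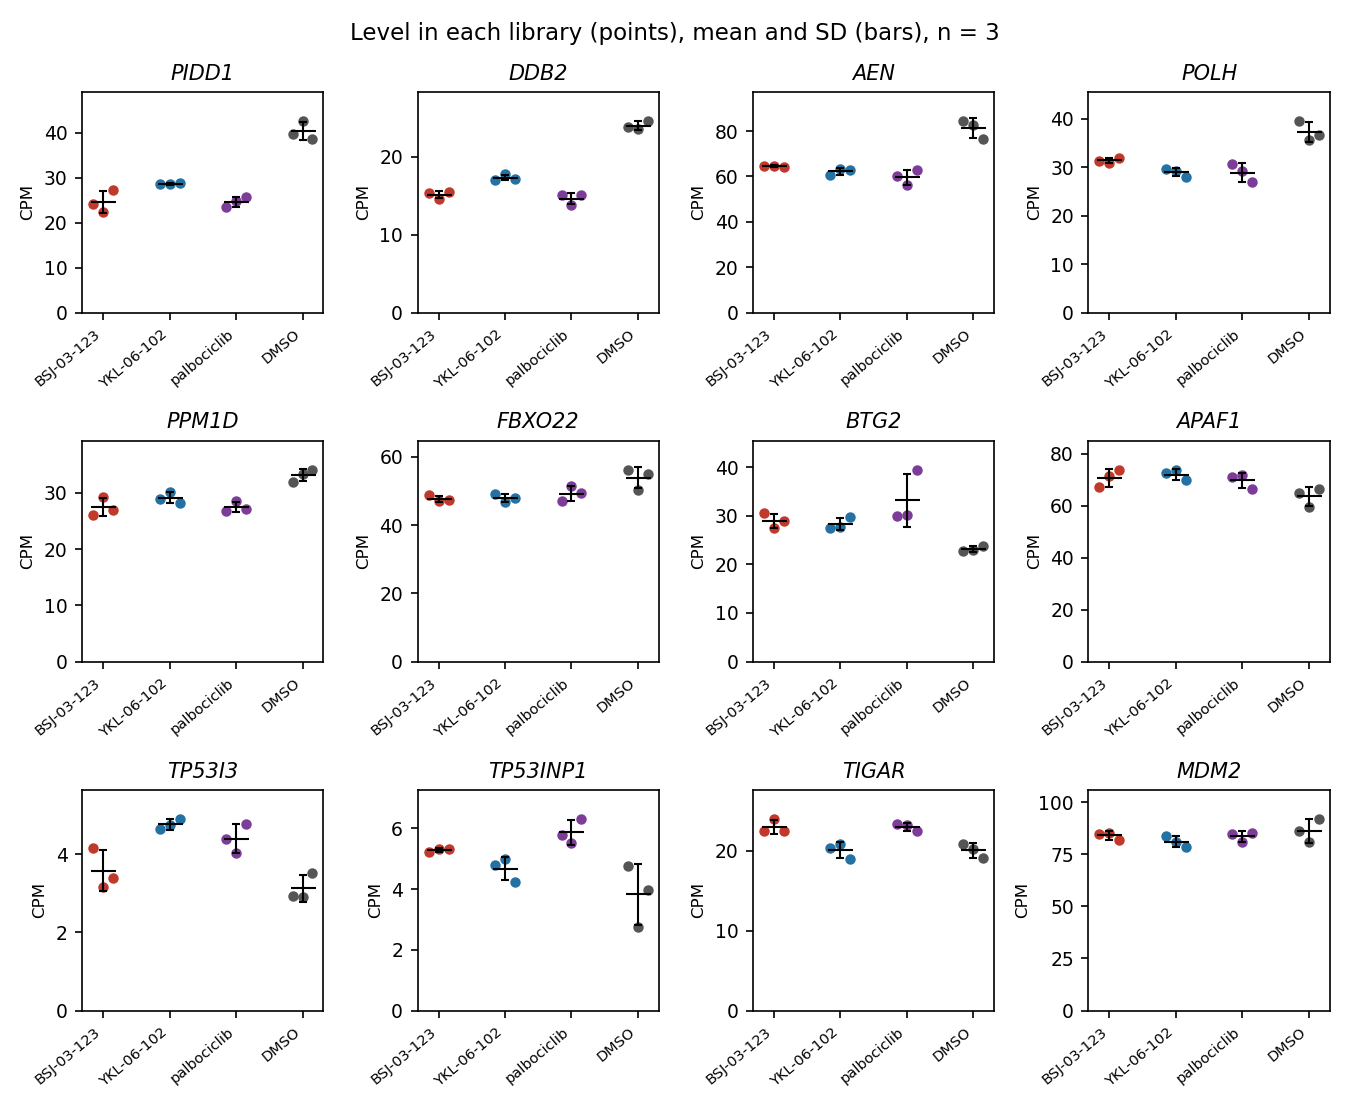
Level (CPM, axes from 0) of 12 members in each library (points), with the mean and SD of 3 libraries per group (bars), for BSJ-03-123, YKL-06-102, palbociclib and DMSO. The treated libraries of PIDD1, DDB2, AEN, POLH and PPM1D lie below every DMSO library, those of MDM2 overlap them, and the spread of TP53INP1 in DMSO comes with 2.74 CPM in replicate 2.

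The 10 tested genes of death receptors and apoptosis moved in both directions: after BSJ-03-123 1 rose and 2 fell, after YKL-06-102 2 rose and 2 fell, and after palbociclib 3 rose and 2 fell. The pair that fell was PIDD1 and AEN with each compound. Over all tested genes, 12.4%, 15.6% and 15.6% were called higher and 15.7%, 21.3% and 17.6% lower, in the same order. PIDD1 (ENSG00000177595, chr11:799179-809753, minus strand), the scaffold of the PIDDosome complex that activates caspase-2, had 24.2, 22.3 and 27.3 CPM after BSJ-03-123, 28.5, 28.5 and 28.9 after YKL-06-102, and 23.5, 24.8 and 25.7 after palbociclib, against 39.8, 42.6 and 38.7 with DMSO. Every treated library lies well below the DMSO libraries, and the YKL-06-102 libraries lie above all those of the other compounds. PIDD1 fell by 0.72 ± 0.06 after BSJ-03-123 (adjusted p = 1.63e-10), by 0.50 ± 0.06 after YKL-06-102 (adjusted p = 5.65e-08) and by 0.72 ± 0.06 after palbociclib (adjusted p = 1.05e-10). PIDD1 shares 107 exon bases with the ribosomal protein gene RPLP2 on the opposite strand, whose log2 fold changes were -0.00 after BSJ-03-123, -0.00 after YKL-06-102 and 0.01 after palbociclib, none of them called.

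AEN (ENSG00000181026, chr15:88621296-88632282, plus strand), a nuclease that takes part in the digestion of DNA during apoptosis, had 64.8, 64.7 and 64.0 CPM after BSJ-03-123, 60.5, 63.5 and 62.9 after YKL-06-102, and 60.0, 56.1 and 62.7 after palbociclib, against 84.5, 82.8 and 76.3 with DMSO. All treated libraries lie below the DMSO libraries. AEN fell by 0.33 ± 0.04 after BSJ-03-123, by 0.38 ± 0.04 after YKL-06-102 and by 0.45 ± 0.04 after palbociclib (adjusted p = 9.39e-07, 4.22e-08 and 3.4e-09).

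APAF1, the scaffold of the apoptosome, had 67.1, 71.3 and 73.8 CPM after BSJ-03-123, 72.6, 73.6 and 69.7 after YKL-06-102, and 71.0, 71.7 and 66.4 after palbociclib, against 64.9, 59.6 and 66.6 with DMSO. The BSJ-03-123 and YKL-06-102 libraries lie above those of DMSO, and 1 palbociclib library overlaps them. APAF1 rose by 0.16 ± 0.05 after BSJ-03-123 (adjusted p = 0.0121), by 0.18 ± 0.05 after YKL-06-102 (adjusted p = 0.00251) and by 0.14 ± 0.05 after palbociclib (adjusted p = 0.0245). Without DMSO replicate 2 the values were 0.10, 0.15 and 0.08 in that order, and only that with YKL-06-102 was called (adjusted p = 0.00667). The call after BSJ-03-123 was also lost without BSJ-03-123 replicate 2 or 3, at 0.14 and 0.12, and that after palbociclib without palbociclib replicate 1 or 2, at 0.12 and 0.11, and in a fit of those 2 groups only, at 0.13.

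TP53I3, a quinone oxidoreductase gene that p53 activates through a repeat near its start, had 4.16, 3.16 and 3.40 CPM after BSJ-03-123, 4.63, 4.74 and 4.90 after YKL-06-102, and 4.39, 4.02 and 4.77 after palbociclib, against 2.93, 2.90 and 3.53 with DMSO. The YKL-06-102 and palbociclib libraries lie above the DMSO libraries, and the BSJ-03-123 libraries overlap them. TP53I3 rose by 0.62 ± 0.13 after YKL-06-102 (adjusted p = 0.000472) and by 0.50 ± 0.14 after palbociclib (adjusted p = 0.00533), and was not called after BSJ-03-123 (0.20 ± 0.15; adjusted p = 0.335). It had 56 to 119 counts per library, and it shares 80 exon bases with FAM228B.

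TNFRSF10B, a receptor for the death ligand TRAIL, had 98.8, 102 and 103 CPM after BSJ-03-123, 84.0, 90.8 and 90.6 after YKL-06-102, and 108, 106 and 101 after palbociclib, against 97.3, 88.4 and 99.5 with DMSO. The palbociclib libraries lie above the DMSO libraries, and the YKL-06-102 libraries overlap them. TNFRSF10B rose by 0.15 ± 0.04 with palbociclib (adjusted p = 0.00806), at 0.09 and not called without DMSO replicate 2 and at 0.13 and not called without palbociclib replicate 1. It was not called with BSJ-03-123 (0.10; adjusted p = 0.0958, but called at 0.13 without DMSO replicate 3 and at 0.14 with library totals) or YKL-06-102 (-0.10; adjusted p = 0.0727), though without DMSO replicate 2 it was called lower with YKL-06-102 at -0.13 (adjusted p = 0.00737). The remaining tested members of this group were not called against DMSO with any compound. They are FAS, the TRAIL receptor TNFRSF10A, the AKT inhibitor PHLDA3, the mitochondrial apoptosis inhibitor TRIAP1 and the actin regulator CYFIP2. PHLDA3 was called lower with BSJ-03-123 when DMSO replicate 1, palbociclib replicate 1 or palbociclib replicate 3 was left out, at -0.30, -0.22 and -0.22, and CYFIP2 was called lower with YKL-06-102 without DMSO replicate 2, at -0.38.

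Among the 6 genes of DNA repair and nucleotide supply, DDB2 and POLH fell with each compound. ASCC3 fell with YKL-06-102 and palbociclib, GADD45A fell with BSJ-03-123 only, and RRM2B rose with BSJ-03-123 and palbociclib. DDB2 (ENSG00000134574, chr11:47214465-47239240, plus strand), which recognises ultraviolet damage for nucleotide excision repair, had 15.3, 14.5 and 15.5 CPM after BSJ-03-123, 17.0, 17.7 and 17.1 after YKL-06-102, and 15, 13.7 and 15 after palbociclib, against 23.8, 23.5 and 24.6 with DMSO. The treated and DMSO libraries are far apart, and within each group the libraries lie close together. DDB2 fell by 0.66 ± 0.06 after BSJ-03-123 (adjusted p = 1.24e-09), by 0.47 ± 0.06 after YKL-06-102 (adjusted p = 2.06e-07) and by 0.71 ± 0.06 after palbociclib (adjusted p = 1.8e-10). The part of the motifs in its printed window in this fall was not tested. Of the other members with an E2F core match, AEN fell with each compound, and SUSD6 and TIGAR rose with BSJ-03-123 and palbociclib. CYFIP2, MDM2, PLK2 and XPC were not called against DMSO.

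POLH, a DNA polymerase that copies past ultraviolet lesions, had 31.3, 30.9 and 32.0 CPM after BSJ-03-123, 29.6, 29.2 and 28.0 after YKL-06-102, and 30.7, 29.1 and 26.8 after palbociclib, against 39.6, 35.5 and 36.6 with DMSO. No treated library reaches the DMSO range. POLH fell by 0.24, 0.36 and 0.36 on the log2 scale with BSJ-03-123, YKL-06-102 and palbociclib (SE 0.05 to 0.06; adjusted p = 0.00108, 4.09e-06 and 6.22e-06). ASCC3, a helicase of alkylation repair, had 97.0, 102 and 96.3 CPM after BSJ-03-123, 92.7, 89.2 and 87.3 after YKL-06-102, and 91.6, 91.7 and 90.3 after palbociclib, against 105, 98.3 and 109 with DMSO. The YKL-06-102 and palbociclib libraries lie below the DMSO range, which 1 BSJ-03-123 library enters. ASCC3 fell by 0.21 ± 0.04 after YKL-06-102 (adjusted p = 8.37e-05) and by 0.19 ± 0.04 after palbociclib (adjusted p = 0.000464), and was not called after BSJ-03-123 (-0.08 ± 0.04; adjusted p = 0.148). Without DMSO replicate 2 it was called after BSJ-03-123 as well, at -0.12.

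GADD45A, a growth arrest and DNA damage response gene at a low level here, had 4.11, 4.35 and 4.43 CPM after BSJ-03-123, 4.59, 4.78 and 5.11 after YKL-06-102, and 4.83, 5.65 and 4.87 after palbociclib, against 5.60, 5.25 and 6.24 with DMSO. The BSJ-03-123 libraries are the lowest of all. GADD45A fell by 0.39 ± 0.12 with BSJ-03-123 (adjusted p = 0.0115), at -0.33 and not called without DMSO replicate 3, and was not called with YKL-06-102 (-0.23) or palbociclib (-0.15). RRM2B, the ribonucleotide reductase subunit that p53 induces, had 86.5, 84.6 and 90.7 CPM after BSJ-03-123, 83.9, 84.9 and 85.7 after YKL-06-102, and 89.1, 85.2 and 97.4 after palbociclib, against 78.6, 72.8 and 83.8 with DMSO. Every treated library lies above the DMSO range, the lowest of them by a slight margin. RRM2B rose by 0.16 ± 0.05 after BSJ-03-123 (adjusted p = 0.0137) and by 0.21 ± 0.05 after palbociclib (adjusted p = 0.00096), and was at 0.12 after YKL-06-102 (adjusted p = 0.0533). That last change was called, at 0.12 to 0.17, when DMSO replicate 3, BSJ-03-123 replicate 1, YKL-06-102 replicate 1 or any 1 palbociclib library was left out. It was also called with library totals, at 0.16, with RLE size factors, at 0.13, by limma-voom, at 0.12, without a filter on low counts, at 0.15, and in a fit of those 2 groups only, at 0.14. Without DMSO replicate 2 the change with BSJ-03-123 was 0.10 and not called, as it was not without BSJ-03-123 replicate 3, at 0.13. XPC, the other damage sensor of nucleotide excision repair, was not called with any compound (-0.05, 0.04 and -0.03), and it shares 318 exon bases with LSM3, which fell with each.

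Among the 6 genes of growth arrest and kinases, BTG2 rose and FBXO22 fell with each compound. BTG2 (ENSG00000159388, chr1:203305491-203309602, plus strand), an antiproliferative protein that recruits mRNA deadenylases, had 30.5, 27.5 and 28.9 CPM after BSJ-03-123, 27.5, 27.7 and 29.8 after YKL-06-102, and 30.0, 30.1 and 39.5 after palbociclib, against 22.7, 23.0 and 23.8 with DMSO. All treated libraries lie above the DMSO libraries, and palbociclib replicate 3 is the highest. BTG2 rose by 0.32 ± 0.08 after BSJ-03-123 (adjusted p = 0.00248), by 0.29 ± 0.08 after YKL-06-102 (adjusted p = 0.00351) and by 0.51 ± 0.08 after palbociclib (adjusted p = 5.18e-06). SUSD6, a membrane protein gene, had 37.3, 39.1 and 38.5 CPM after BSJ-03-123, 35.7, 37.2 and 38.7 after YKL-06-102, and 38.9, 35.6 and 38.1 after palbociclib, against 32.5, 35.3 and 34.6 with DMSO. The treated libraries lie above the DMSO range, some only just. SUSD6 rose by 0.16 ± 0.05 after BSJ-03-123 (adjusted p = 0.0166) and by 0.13 ± 0.05 after palbociclib (adjusted p = 0.0429), and was at 0.12 after YKL-06-102 (adjusted p = 0.0604). The call after BSJ-03-123 was lost at 0.13 without DMSO replicate 1, at 0.14 without BSJ-03-123 replicate 2 and at 0.16 without BSJ-03-123 replicate 3, and that after palbociclib was kept under 7 of 19 alternatives. It was lost without DMSO replicate 1 or 3, palbociclib replicate 1 or 3, or any 1 library of the other compounds, at 0.10 to 0.14, and by DESeq2 and in a fit of those 2 groups only, at 0.13 each. The change after YKL-06-102 was called, at 0.14 to 0.17, without DMSO replicate 2, BSJ-03-123 replicate 1, YKL-06-102 replicate 1, or palbociclib replicate 1 or 2. It was also called with library totals, at 0.16, with RLE size factors, at 0.13, without a filter, at 0.15, and in a fit of those 2 groups only, at 0.14.

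FBXO22, a substrate adaptor of a ubiquitin ligase, fell by 0.17 after BSJ-03-123, by 0.16 after YKL-06-102 and by 0.13 after palbociclib (adjusted p = 0.00725, 0.00649 and 0.038), and 1 palbociclib library overlaps DMSO. The call with palbociclib was lost without DMSO replicate 1 or 3 and without palbociclib replicate 1 or 3, at -0.10, -0.12, -0.10 and -0.13. It was also lost with library totals, at -0.08 (adjusted p = 0.2), without a filter, at -0.11, and by DESeq2 and in a fit of those 2 groups only, at -0.13 each, so that 11 of 19 alternatives kept it. The call with YKL-06-102 was lost without DMSO replicate 1 or YKL-06-102 replicate 2, at -0.13 each. FBXO22 shares 1917 exon bases with NRG4. The polo-like kinase genes PLK2 and PLK3 and the RNA-binding protein gene ZMAT3 were not called against DMSO. Without DMSO replicate 3, ZMAT3 was called higher with BSJ-03-123 and palbociclib, at 0.26 and 0.22, and without BSJ-03-123 replicate 1 it was called with that compound at 0.23. With library totals it was called with BSJ-03-123 and palbociclib, at 0.23 and 0.19, and without a filter with BSJ-03-123, at 0.20.

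Of the 3 genes of metabolism and redox, TIGAR rose with BSJ-03-123 and palbociclib, and the sestrin gene SESN1 and the ferredoxin reductase gene FDXR were not called. TIGAR, which encodes a phosphatase that restrains glycolysis, had 22.5, 24 and 22.5 CPM after BSJ-03-123, 20.4, 20.9 and 19.0 after YKL-06-102, and 23.4, 23.2 and 22.5 after palbociclib, against 20.9, 20.2 and 19.1 with DMSO. The BSJ-03-123 and palbociclib libraries lie above all others, and the YKL-06-102 libraries overlap those of DMSO. TIGAR rose by 0.20 ± 0.06 with BSJ-03-123 (adjusted p = 0.0143) and by 0.20 ± 0.06 with palbociclib (adjusted p = 0.0102). With YKL-06-102 the value was 0.00 ± 0.06, with a 95% interval from -0.12 to 0.12. Both calls were lost without DMSO replicate 3, at 0.16 each, and that with BSJ-03-123 also without BSJ-03-123 replicate 2, at 0.16.

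The compounds were compared with each other at the same dose and time in 3 pairs, each adjusted over all tested genes. Between BSJ-03-123 and palbociclib no member was called, where 0.155% of all tested genes were called higher and 0% lower. By edgeR 6 of the 30 members were at an unadjusted p under 0.05, beside 8.43% of all tested genes. Without BSJ-03-123 replicate 2 this held for 1 member, beside 509 genes higher and 406 lower of 14548. With all libraries, DESeq2 and limma-voom called 0 members as well. The 95% interval lay within a 1.2-fold difference for 24 of the 30 members and within 1.5-fold for 29. For PIDD1 the difference was -0.00, with an interval from -0.13 to 0.13, and for DDB2 it was 0.05, from -0.09 to 0.19. The widest difference was that of TP53I3, at -0.30, from -0.57 to -0.03, followed by GADD45A at -0.25, from -0.49 to -0.01, and BTG2 at -0.19, from -0.34 to -0.04. These members were picked as the widest of 30, and their intervals are not adjusted for that. Their edgeR adjusted p were 0.557, 0.577 and 0.446 in that order. A p above the threshold does not show that these compounds act alike.

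YKL-06-102 and palbociclib differed at 5 members, with 2 higher and 3 lower with YKL-06-102, beside 12.7% and 11.9% of all genes. DDB2 was higher with YKL-06-102 than with palbociclib by 0.24 ± 0.06 (adjusted p = 0.00437) and PIDD1 by 0.22 ± 0.06 (adjusted p = 0.00878), and for both genes all 3 YKL-06-102 libraries lie between the palbociclib and the DMSO libraries. TNFRSF10B was lower with YKL-06-102, at -0.25 ± 0.04 (adjusted p = 4.83e-05), with no overlap of libraries. RHOBTB2, which shares 67 exon bases with TNFRSF10B on the opposite strand, was also lower, at -0.41. BTG2 was lower, at -0.22 ± 0.07 (adjusted p = 0.0262), but at -0.08 and not called without palbociclib replicate 3 (adjusted p = 0.37), and it was also lost without any 1 YKL-06-102 library and without BSJ-03-123 replicate 1, at -0.18 to -0.24. TIGAR was lower, at -0.20 ± 0.06 (adjusted p = 0.0113), and was lost without YKL-06-102 replicate 3, at -0.14, or without palbociclib replicate 1 or 2, at -0.17 each. DESeq2 and the fit without YKL-06-102 replicate 3 each left 1 of the 3 lower calls. The interval lay within 1.2-fold for 18 members and within 1.5-fold for 28, and for POLH it ran from -0.11 to 0.11. TP53INP1 was called lower without DMSO replicate 1 or 2, at -0.32 and -0.30, and in a fit of those 2 groups only, at -0.32, and XPC higher without DMSO replicate 2, at 0.09.

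BSJ-03-123 and YKL-06-102 differed at 6 members, with 3 higher and 3 lower with BSJ-03-123, beside 9.74% and 10.4% of all genes. TNFRSF10B was higher with BSJ-03-123 by 0.20 ± 0.04 (adjusted p = 0.00109), TIGAR by 0.20 ± 0.06 (adjusted p = 0.0168) and ASCC3 by 0.13 ± 0.04 (adjusted p = 0.0161). TP53I3 was lower with BSJ-03-123, at -0.42 ± 0.13 (adjusted p = 0.0215), as was PIDD1, at -0.22 ± 0.06 (adjusted p = 0.0113) and DDB2, at -0.19 ± 0.06 (adjusted p = 0.0302). At each of these genes the BSJ-03-123 libraries lie wholly to one side of the YKL-06-102 libraries. Over the 30 tested members, called or not, they lie wholly higher for 8 and wholly lower for 6. The share of all tested genes that separate in this way is not given here. TNFRSF10B was the member called under all 19 alternatives, and RHOBTB2 moved the same way, at 0.38. Without BSJ-03-123 replicate 2, 1 member was called higher and 0 lower, with PIDD1 at -0.16, DDB2 at -0.17, TP53I3 at -0.34, TIGAR at 0.16 and ASCC3 at 0.10, and without YKL-06-102 replicate 3, 1 was called higher and 2 lower. Single calls were also lost for TP53I3 without BSJ-03-123 replicate 3, at -0.38, for DDB2 without YKL-06-102 replicate 2, at -0.20, for TIGAR without YKL-06-102 replicate 1, at 0.19, and for ASCC3 without BSJ-03-123 replicate 1, YKL-06-102 replicate 2 or palbociclib replicate 1 or 2, at 0.11 to 0.12. XPC was called lower without DMSO replicate 2, YKL-06-102 replicate 2, or palbociclib replicate 1 or 2, at -0.12 to -0.14, with RLE size factors, at -0.11, and in a fit of those 2 groups only, at -0.10, and ZMAT3 higher without DMSO replicate 3 and in that fit, at 0.18 each. DESeq2 left 1 of the 3 lower calls and lost TIGAR, at 0.19, and without a filter TIGAR and ASCC3 were lost, at 0.18 and 0.12. The interval lay within 1.2-fold for 17 members and within 1.5-fold for 28. This comparison and that of YKL-06-102 with palbociclib share the YKL-06-102 libraries.

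**Figure D4:**
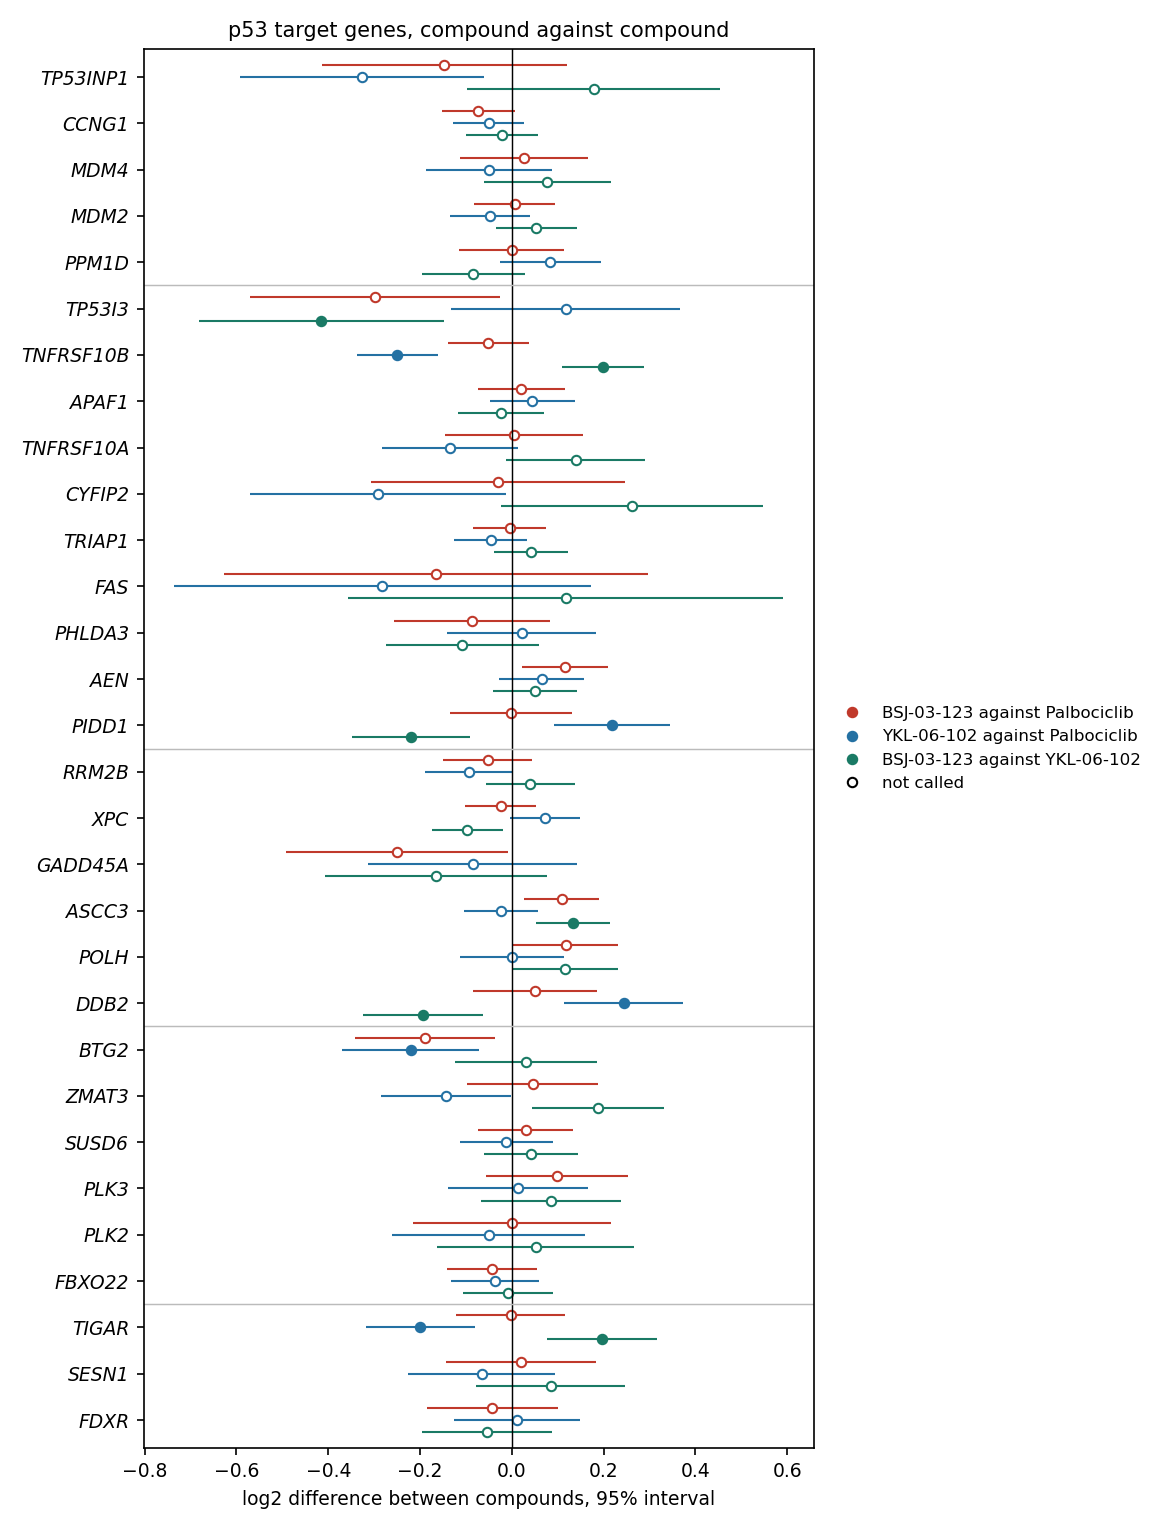
Log2 fold change of each tested member between compounds, with 95% intervals, and filled points for calls at an adjusted p under 0.05. BSJ-03-123 against palbociclib has no filled point, and DDB2 and PIDD1 are higher with YKL-06-102 than with either other compound while TNFRSF10B is lower.

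Beyond the members, 56 other genes reported as p53 targets were examined, of which 51 were tested. After BSJ-03-123 9 rose and 15 fell, after YKL-06-102 13 rose and 15 fell, and after palbociclib 11 rose and 15 fell, against DMSO. Over all tested genes the shares were 12.4% higher and 15.7% lower, 15.6% and 21.3%, and 15.6% and 17.6% in the same order. Their median log2 fold change was -0.04, 0.00 and -0.06 in that order. Between BSJ-03-123 and palbociclib none was called, 8 were higher and 5 lower for YKL-06-102 against palbociclib, and 7 were higher and 7 lower for BSJ-03-123 against YKL-06-102, beside 12.7% and 11.9% of all genes in the second pair and 9.74% and 10.4% in the third. CDKN1A, the cell cycle inhibitor p21 and the best known p53 target, had 41.3, 40.5 and 38.9 CPM after BSJ-03-123, 51.5, 50.7 and 51.6 after YKL-06-102, and 38.4, 42.6 and 39.2 after palbociclib, against 47.7, 53 and 48.5 with DMSO. The BSJ-03-123 and palbociclib libraries lie below the DMSO range and the YKL-06-102 libraries lie inside it. CDKN1A fell by 0.31 ± 0.05 after BSJ-03-123 (adjusted p = 1.92e-05) and by 0.32 ± 0.05 after palbociclib (adjusted p = 9.82e-06), and was not called after YKL-06-102 (0.04 ± 0.05; adjusted p = 0.565). It was higher with YKL-06-102 than with palbociclib by 0.36, and lower with BSJ-03-123 than with YKL-06-102, at -0.35, both called.

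TP53I11 fell by 0.75, 0.76 and 0.60 with BSJ-03-123, YKL-06-102 and palbociclib, and the apoptosis regulator TNFAIP8 fell by 0.77, 0.70 and 0.75. CES2, a carboxylesterase gene, rose by 0.25, 0.34 and 0.19, and RETSAT, a retinol saturase gene, by 0.35, 0.17 and 0.44. RETSAT shares 227 exon bases with ELMOD3 on the opposite strand. IER5, an immediate early response gene, fell by 0.30, 0.72 and 0.18, and was lower with YKL-06-102 than with palbociclib, at -0.54. The IER5 libraries of palbociclib, at 26.2, 28.1 and 28.8 CPM, overlap those of DMSO, at 27.9, 33.8 and 31.9. Among the proapoptotic genes of the BCL2 family, PMAIP1 fell by 0.33, 0.19 and 0.52. BBC3 and BAX were chosen after their values were seen. BBC3 rose by 0.41 after YKL-06-102 and was not called after BSJ-03-123 (0.02) or palbociclib (-0.06), and BAX fell by 0.19 after BSJ-03-123 and by 0.16 after palbociclib and was not called after YKL-06-102 (-0.07). Like the members, this list held genes that rose and genes that fell.

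Of 25 further genes of the p53 network, such as relatives and regulators of p53, 24 were tested, and against DMSO 5 rose and 4 fell after BSJ-03-123, 5 rose and 7 fell after YKL-06-102, and 2 rose and 5 fell after palbociclib. Higher calls made up 20.8%, 20.8% and 8.33% of this list in that order, against 12.4%, 15.6% and 15.6% of all genes, and lower calls 16.7%, 29.2% and 20.8%, against 15.7%, 21.3% and 17.6%. Their median log2 fold change was 0.02, -0.02 and 0.00. Between BSJ-03-123 and palbociclib none was called, 7 were higher and 3 lower for YKL-06-102 against palbociclib, and 6 were higher and 5 lower for BSJ-03-123 against YKL-06-102, beside the same 12.7% and 11.9%, and 9.74% and 10.4%, of all genes. TP73, the p53 relative p73 and a known E2F target, had 2.71, 3.16 and 2.88 CPM after BSJ-03-123, 3.85, 4.69 and 4.37 after YKL-06-102, and 2.48, 2.43 and 2.89 after palbociclib, against 12.6, 14.4 and 10.8 with DMSO. Its treated and DMSO libraries are far apart. TP73 fell by 2.12 ± 0.13, 1.56 ± 0.11 and 2.29 ± 0.14 with BSJ-03-123, YKL-06-102 and palbociclib (adjusted p = 4.07e-14, 2.63e-12 and 5.77e-15). CHEK1, a checkpoint kinase gene that E2F also drives, fell by 1.60, 1.34 and 1.78, and CHEK2, a kinase that phosphorylates p53, fell by 0.41, 0.39 and 0.40. PPP1R13L, which encodes the p53 inhibitor iASPP, rose by 2.16 ± 0.10 with YKL-06-102 (adjusted p = 6.77e-17), with 18.9, 17.6 and 17.2 CPM against 3.77, 4.12 and 4.07 with DMSO, and was not called with BSJ-03-123 (-0.20) or palbociclib (-0.19). RCHY1, a ubiquitin ligase for p53, rose by 0.21 after BSJ-03-123 and by 0.58 after YKL-06-102, and was not called after palbociclib (0.12). On opposite strands, TP73 shares 633 exon bases with TP73-AS1, PPP1R13L 58 with CD3EAP, RCHY1 547 with THAP6 and CHEK2 301 with HSCB. CHEK1 shares 80 with STT3A on the same strand. The part of shared bases in these changes was not tested.

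**Figure D5:**
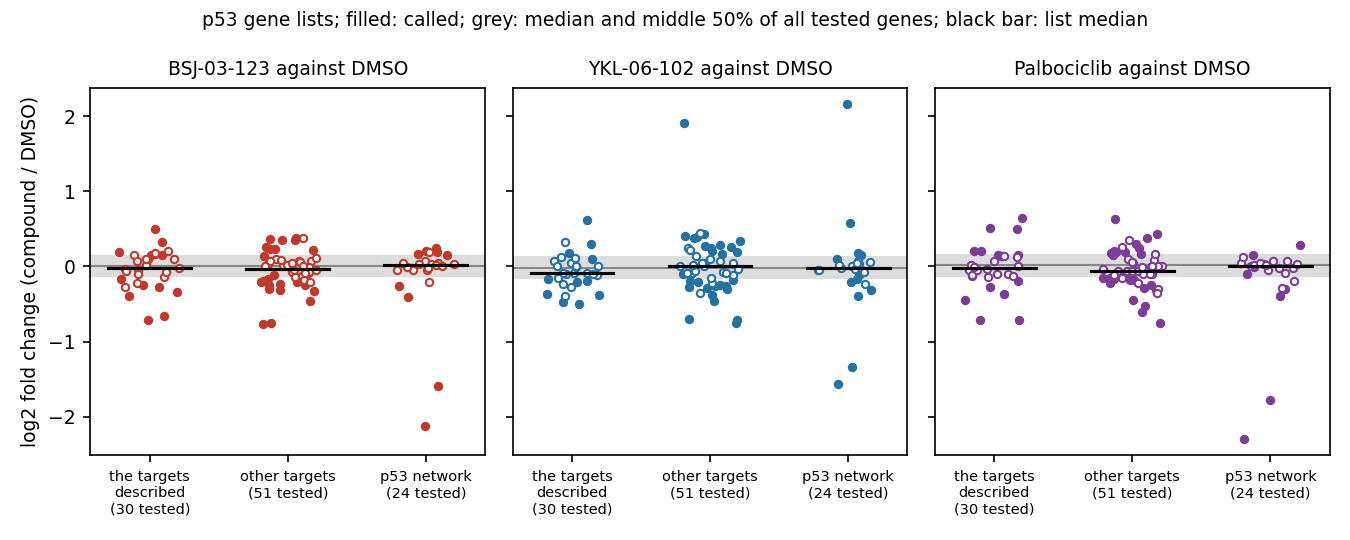
Distribution of log2 fold changes against DMSO for the members, the other reported p53 targets, the p53 network list and all tested genes, for each compound. The medians of the members, -0.03, -0.09 and -0.02 with BSJ-03-123, YKL-06-102 and palbociclib, lie near those of all genes, and the lowest points are TP73 and CHEK1. Filled points are called, grey shows the median and middle range of all tested genes, and black bars are list medians.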

How the data were processed

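Polyadenylated RNA of 12 libraries was sequenced with a stranded kit, per the labels' protocols. The deposited values are raw read counts per Ensembl gene, which the authors left without normalization. The submitters' processing notes name Trimmomatic 0.36, STAR 2.5.2b, HTSeq and the build hg38. Which annotation release, HTSeq version and strand setting were used is not given in the sources used here. GENCODE 29 (GRCh38) named 57447 of the 58051 IDs and supplied gene coordinates and exon lengths.

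Of 28826 genes with a count, 14214 passed edgeR's filterByExpr (minimum count 10, minimum total 15). One edgeR 4.0.16 fit in R 4.3.3 held all 12 libraries (TMM factors, quasi-likelihood test, prior count 0.125, 8 residual degrees of freedom), with 2-sided tests of 6 contrasts. CPM are TMM-scaled. Each log2 fold change has a Wald standard error and 95% interval. The tests were first tried on simulated counts, for YKL-06-102 against DMSO and against palbociclib only, with 50 changed genes per fold size. There 82% and 78% of 1.25-fold changes were called, and unchanged genes made up 5.91% and 5.56% of calls. Far fewer genes changed in the simulation than were called in the data. Smaller changes and changes of genes at low levels were not simulated. Alternatives were DESeq2 1.42.0, limma-voom (limma 3.58.1), other scalings, no filter, fits of 2 groups, a replicate block and leaving out each library.

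The members and the further gene lists were chosen with earlier results of these data known. Full values are given for MDM2, for up to 6 called members with the highest and 6 with the lowest fold change against DMSO, and for up to 4 of each between compounds. From each further list up to 4 called genes per contrast by smallest p could be named, with CDKN1A in addition. Some genes of these lists are not reported here. Promoter windows come from RefSeq (GRCh38.p14). No other sequence was used.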

Additional observations from a re-analysis of the deposited data

How the results depend on the processing

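Each result was recomputed under 19 alternatives. Of 3415 values of single members, 3283 stayed on the same side of the threshold, 75 lost and 57 gained a call, and 0 turned direction among those called in either fit. Of the 3283, 118 were uncalled values whose sign changed. The count of members higher with BSJ-03-123 than with DMSO was 6, against 10 when scaled by library totals alone and 3 to 8 with 1 library left out. That higher with YKL-06-102 than with DMSO was 4, against 7 without a filter on low counts and 3 to 6 with 1 library left out. That lower with YKL-06-102 than with palbociclib was 3, against 1 by DESeq2 and 1 to 4 with 1 library left out. Between BSJ-03-123 and YKL-06-102, the count higher was 3, against 1 without a filter and 1 to 4 with 1 library left out, and the count lower was 3, against 1 by DESeq2 and 0 to 4 with 1 library left out. With 1 library left out, members lower than with DMSO numbered 6 to 8 with BSJ-03-123, 6 to 10 with YKL-06-102 and 6 to 7 with palbociclib, and members higher with palbociclib 6 to 9. Between BSJ-03-123 and palbociclib no alternative called a member. The cause of these shifts was not tested. Scaling by library totals moved the median log2 fold change of all genes with BSJ-03-123 to 0.05, with 2852 genes higher and 1765 lower, against 1763 and 2234. Whether the replicate numbers pair the libraries is unresolved: 2 of 18 same-numbered pairs correlated above 0.1, and 7 of 12 libraries matched best with their own number. Correlations of same-numbered pairs ran from -0.16 to 0.23, and those of other pairs from -0.21 to 0.18. With the replicate block, 7 members were higher and 7 lower after BSJ-03-123, 5 and 7 after YKL-06-102, and 9 and 7 after palbociclib, against DMSO, with MDM4 after BSJ-03-123 and RRM2B after YKL-06-102 called in addition (adjusted p = 0.0496 and 0.022). Over all 14214 tested genes the block gave 1749 higher and 2242 lower, 2215 and 3029, and 2202 and 2485, in the same order. Changes of low genes such as FAS and SPATA18 are limited by depth. The intervals rest on a spread fitted over all 12 libraries, 3 a group, and shared in part across genes.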
